A study of Mus musculus with 8 samples.

Results

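Knockdown of the histone methyltransferase MLL1 was compared with the control in C3H10T1/2 cells at day 5 of adipogenic differentiation, with the shMLL1 library set against the shControl library of the same day. C3H10T1/2 cells are mouse mesenchymal stem cells, which form fat cells when confluent cultures are given IBMX, dexamethasone and insulin. Of the 41325 genes listed, 11039 were kept because their RPKM, a read count scaled by exon length and by the mapped reads of the library, was over 1 in at least 1 of the 2 libraries. The series holds 8 libraries, which are shControl (labelled WT), shKDM4D, shNFIB and shMLL1 cells at day 0, before induction, and at day 5, with 1 library per condition and the same adipogenic treatment in every line. The knockdown lines were made with an shRNA vector under puromycin selection and grown from isolated clones, and how the shControl line was made is not given in the sources used here. Which clone was sequenced is not given in the sources used here, so a difference of the clone and one of the knockdown cannot be told apart. As there are no replicates, no p-value is given, a gene is called lower or higher when its log2 ratio of RPKM + 0.1 is past -1 or 1, and the exact 95% intervals given with log2 ratios are those of the read ratio without the 0.1, so that they can lie off centre, and cover counting error only. The shMLL1 and shControl day 5 libraries held 38125289 and 19329117 mapped reads, so at equal RPKM the control count is the smaller. For genes near 0 in shMLL1 cells, the ratio is limited by the shMLL1 count. In bulk RNA, fewer cells of a type and less RNA per cell cannot be told apart.

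MLL1, encoded by Kmt2a, is a lysine methyltransferase that places methyl groups on lysine 4 of histone H3, a mark of active promoters, and it works in a complex with the shared subunits WDR5, RBBP5, ASH2L and DPY30. It is best known for keeping Hox genes active in blood cells. Fat cell differentiation runs through the early factors C/EBPβ and C/EBPδ to PPARγ and C/EBPα, which turn on the genes for lipid uptake, storage and release.

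The targeted gene was lower in both shMLL1 libraries than in any other library. The RPKM of Kmt2a was 5.17 and 5.27 in shControl cells at days 0 and 5 and 2.00 and 1.63 in shMLL1 cells, 4.68 and 4.89 in shKDM4D cells and 6.33 and 3.74 in shNFIB cells. The log2 ratio at day 5 was -1.64 (95% interval, -1.81 to -1.58). Of the other 18 genes of the MLL and SET1 complexes, 17 differed by less than 2-fold, among them the related methyltransferases Kmt2b (0.02), Kmt2c (-0.56) and Kmt2d (-0.22) and the core subunits Ash2l (0.54), Wdr5 (0.33), Rbbp5 (0.35) and Dpy30 (0.29), given as log2 ratios. The remaining member, Pagr1a, which belongs to the MLL3 and MLL4 complexes, had an RPKM of 0.217 in shControl cells against 1.72 in shMLL1 cells and rested on 6 control reads (log2 ratio 2.52; 95% interval, 1.81 to 4.47). Nfib, whose protein is one of the partners in this study, had an RPKM of 17.0 in shControl cells against 10.3 in shMLL1 cells (log2 ratio -0.72).

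Among the 11039 genes, 378 (3.42%) were lower and 486 (4.4%) were higher in shMLL1 cells at day 5, and 10175 (92.2%) lay within 2-fold. The median log2 ratio was 0.07, with quartiles at -0.18 and 0.32. The called genes included 61 that were lower and 90 that were higher by more than 8-fold. At the limit of RPKM 1, the gene just inside was 2310015A10Rik (0.755 against 1.00, control first) and the gene just outside was Madd (0.900 against 0.999). The genes with the lowest ratios, outside predicted symbols and with an RPKM of at least 10 in the higher library, were mostly genes of fat cells, led by Cidec (-9.34), Adipoq (-8.59), Lpl (-7.79), Cfd (-7.51), Fabp4 (-7.23) and Plin1 (-6.96). One exception was Rn7s1, a 7SL RNA of the signal recognition particle, with an RPKM of 52.9 against 0.437. The highest were mostly interferon-inducible genes, and the leading ones were Oas1g (7.06), Ifi44 (6.77), the histone gene Hist1h2ah (6.69), Oas2 (6.41), Tgtp2 (6.22) and Zbp1 (6.19).

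**Figure D1:**
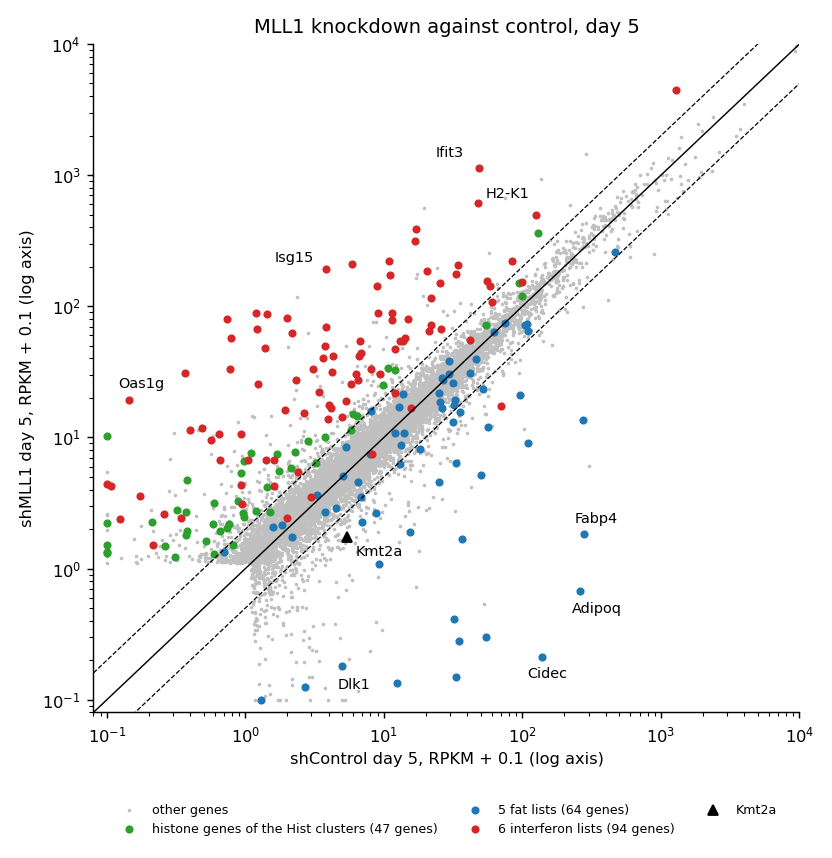
RPKM + 0.1 in the shMLL1 library (y axis) against the shControl library (x axis) at day 5 for the 11039 genes kept, both on log axes, with the line of equality (solid) and the 2-fold limits (dashed). Of the 64 genes of the 5 fat lists (blue), 50 lie below the solid line, genes of the 6 interferon lists (red) and histone genes (green) lie above it except Ifi27 and Mavs, and Kmt2a is the black triangle.

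Genes for the storage of fat made up the clearest group among the lower genes. The 5 lists of lipid droplet proteins, lipases, fatty acid uptake, adipokines and lipid synthesis held 64 genes that were kept, of which 28 were lower (43.75%, against 3.42% of all genes) and none was higher. Of the 64 genes, 63 had an RPKM over 1 in shControl cells and 53 in shMLL1 cells, so that part of them was kept only through the control. Their median log2 ratio was -0.76, beside 0.07 for all genes. Before induction, the median over the same 64 genes was -0.09, though the 0.1 added to RPKM pulls ratios of genes near 0 at day 0 towards 0. The lower values were not confined to shMLL1 cells. At day 5, all 28 lower genes were also over 2-fold lower in shNFIB cells and 25 in shKDM4D cells. Among all 378 lower genes this was 219 and 161. The shMLL1 value was the lowest of the day 5 libraries for 7 of the 28. These ratios share the 1 shControl library and are not independent.

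Of the 21 transcription factors that promote adipogenesis, 3 were lower (against 3.42% of all genes) and none was higher. They were Pparg (-1.57), Cebpa (-2.49) and Nr1h3, which encodes the oxysterol receptor LXRα and had an RPKM of 0.0448 (day 0) and 2.63 (day 5) in shControl cells and 0.0312 and 0.396 in shMLL1 cells. The early factors did not follow them, since the RPKM of Cebpb was 49.3 in shControl cells against 48.7 in shMLL1 cells and that of Cebpd was 48.1 against 45.2. Ebf1, a factor that acts with PPARγ, was within 2-fold at 18.8 against 11.2, and the RXR partner of PPARγ, Rxra, at 23.8 against 16.0. Klf15 (1.52 against 2.84) and Ppargc1a (2.00 against 4.01), a coactivator of mitochondrial genes, were above the control value without passing the limit. Among 14 factors that restrain adipogenesis, Dlk1 (also known as Pref-1) had an RPKM of 0.823 at day 0 and 5.09 at day 5 in shControl cells, and 0 and 0 in shMLL1 cells. It was at least 366-fold lower at day 5 when the shMLL1 library is set at the floor of 3 reads. Runx2, the bone factor on the same list, was at 5.77 against 2.64.

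The lipases showed the strongest difference of the 5 lists, with 6 of 9 genes lower and a median log2 ratio of -3.02. The RPKM of Pnpla2, which encodes adipose triglyceride lipase, was 7.50 and 109 in shControl cells at days 0 and 5 and 8.66 and 8.91 in shMLL1 cells. Hormone-sensitive lipase, Lipe, was at 0.733 (day 0) and 15.4 (day 5) in shControl cells and 0.64 and 1.81 in shMLL1 cells. For Mgll, which completes the breakdown of triglyceride, the values were 1.03 at day 0 and 9.14 at day 5 in shControl cells, and 0.232 and 0.976 in shMLL1 cells. All 3 were higher at day 5 than at day 0 in shControl cells, while in shMLL1 cells Pnpla2 was at nearly the same level on both days. Their log2 ratios at day 5 were -3.60 (-3.71 to -3.52), -3.02 (-3.25 to -2.93) and -3.10, in that order. Pnpla3 was found in 36 reads of the control and in none of the shMLL1 library, which makes it at least 23.7-fold lower. Lysosomal acid lipase, Lipa, stayed within 2-fold at 103 against 72.1, as did the lipase activator Abhd5 at 13.2 against 8.64.

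Lipid droplet proteins did not all pass the limit, and Fitm2 (-0.96), Bscl2 (-0.64) and Hilpda (0.14) had log2 ratios within 2-fold. Plin1, Plin4, Cidec and G0s2 were lower, 4 of 9 genes, and Plin4 was at 13.1 and 52.0 in shControl cells at days 0 and 5 and 4.42 and 23.3 in shMLL1 cells. Plin2, which coats the droplets of most cell types, was at 30.7 (day 0) and 62.2 (day 5) in shControl cells and 34.0 and 63.5 in shMLL1 cells, and Plin3 was at 29.6 against 30.4 at day 5. G0s2, the inhibitor of adipose triglyceride lipase, was at 0.388 at day 0 and 32.8 at day 5 in shControl cells, and 0 and 6.23 in shMLL1 cells (log2 ratio -2.38; 95% interval, -2.63 to -2.16).

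Of 14 genes for fatty acid uptake, binding and activation, 4 were lower. Acsl1, the main acyl-CoA synthetase of fat cells, was at 2.69 and 36.4 in shControl cells at days 0 and 5 and 2.66 and 1.58 in shMLL1 cells, a log2 ratio of -4.44 (-4.65 to -4.41) at day 5. The fatty acid transporter Cd36 was at 4.84 in shControl cells against 0.0804 in shMLL1 cells, and the binding protein Fabp5 at 35.0 against 15.5. Other synthetases did not share this pattern, as Acsl4 was at 12.0 against 10.7, Acsl5 at 12.8 against 17.0 and Acsl3 at 7.99 against 15.8.

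Lipid synthesis was represented by 22 genes, 9 of them lower. The RPKM of Scd1, a stearoyl-CoA desaturase, was 27.0 (day 0) and 272 (day 5) in shControl cells and 22.4 and 13.4 in shMLL1 cells, whereas its paralog Scd2 was at 108 against 73.8 at day 5. Of the steps that build triglyceride, some were lower: Agpat2 at 50.5 against 5.06, Dgat2 at 24.8 against 4.49, Dgat1 at 6.86 against 2.18 and Gpd1 at 31.8 against 0.31. Others were within 2-fold, such as the first acylation by Gpam (13.8 against 10.7), Agpat3 (25.4 against 18.4) and the lipin genes Lpin1 (6.39 against 4.47), Lpin2 (1.75 against 2.06) and Lpin3 (2.07 against 1.65). Pyruvate carboxylase, Pcx, was at 3.53 at day 0 and 56.3 at day 5 in shControl cells, and 3.46 and 11.8 in shMLL1 cells. In contrast, the enzyme that supplies acetyl-CoA from citrate was within 2-fold (Acly, 24.8 against 21.7), while fatty acid synthase, Fasn, was at 31.2 against 12.9 (log2 ratio -1.27). Cholesterol synthesis, a related pathway, had 1 of 25 genes lower, Hmgcs1 (27.5 against 8.36; log2 ratio -1.70), and none higher.

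Secreted products of fat cells were lower for 5 of 10 genes. The RPKM of Agt, angiotensinogen, was 0.0397 and 96.4 in shControl cells at days 0 and 5 and 0.0138 and 20.9 in shMLL1 cells, so that shMLL1 cells also carried more of it at day 5 than at day 0. Rarres2, the chemerin gene, was at 0.0141 (day 0) and 18.2 (day 5) in shControl cells and 0.0197 and 8.04 in shMLL1 cells and behaved alike. Resistin, Retn, was covered by 2 reads in shMLL1 cells and by 378 in shControl cells (95% interval of the log2 read ratio, -11.59 to -6.68). Nampt, an adipokine that many cell types make, was at 18.4 at day 0 and 74.97 at day 5 in shControl cells, and 13.7 and 73.98 in shMLL1 cells, so that the day 5 values were nearly equal. Secreted acute-phase genes varied: haptoglobin, Hp, was at 304 against 5.96, Orm1 at 34.1 against 6.67 and Lcn2 at 44.3 against 48.4 at day 5.

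**Figure D2:**
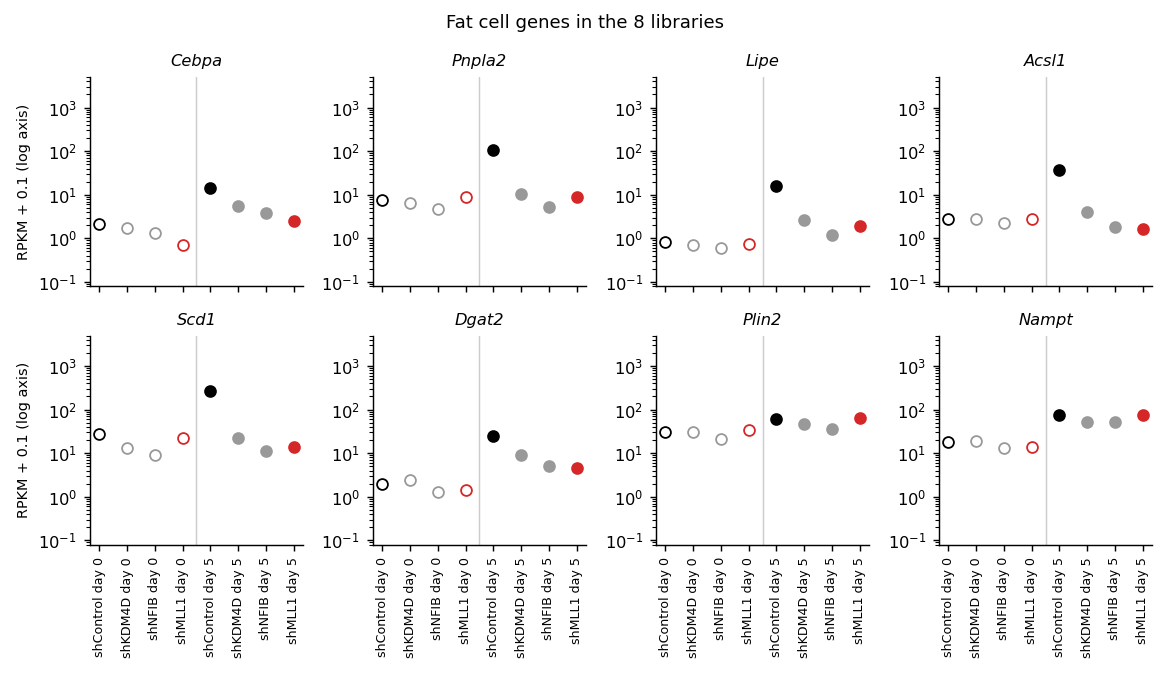
RPKM + 0.1 on a log axis for 8 fat cell genes in each of the 8 libraries, with open circles for day 0 and filled circles for day 5 (black, shControl; red, shMLL1; grey, shKDM4D and shNFIB). For Cebpa, Pnpla2, Lipe, Acsl1, Scd1 and Dgat2 the shControl day 5 value is the highest of the 8, whereas Plin2 and Nampt are alike in the shControl and shMLL1 day 5 libraries.

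Among the genes of brown and beige fat, 5 of 17 were kept and 3 were lower, against 3.42% of all genes. As 5 had an RPKM over 1 in shControl cells and 1 in shMLL1 cells, most of them were kept only through the library in which they were high. Adrb3, the β3-adrenergic receptor that starts lipolysis, was found in 70 control reads and in none of the shMLL1 library (at least 46.0-fold lower). Cox8b, a muscle and brown fat subunit of cytochrome oxidase, was found in 27 reads and in none (at least 17.8-fold lower). Tbx1 was at 3.22 and 4.35 in shControl cells at days 0 and 5 and 0.127 and 0.276 in shMLL1 cells and was therefore low in shMLL1 cells at both days. The insulin-regulated glucose transporter Slc2a4 (GLUT4) was at 3.66 against 0.0226 from 246 and 3 reads (95% interval, -9.63 to -5.77). Igfbp5, which binds insulin-like growth factors, was at 0.05 (day 0) and 17.1 (day 5) in shControl cells and 0 and 0.62 in shMLL1 cells, and Igf1 was at 8.38 against 3.14 at day 5. On the insulin and IGF list, 5 of 18 genes were lower (against 3.42% of all genes) and none was higher.

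Genes of mitochondrial metabolism differed by less. All 30 genes of the TCA cycle and of pyruvate and branched-chain amino acid use had log2 ratios below 0, with a median of -0.37, but only Bcat2 (30.1 against 11.3), Pdk4 (12.0 against 5.60) and Pccb (17.1 against 8.16) passed the limit. Of 23 fatty acid oxidation genes, 20 had log2 ratios below 0, with a median of -0.28 at day 5 and -0.26 at day 0. Among them, 1 passed the limit, Acadm (48.5 against 21.3). The 13 protein genes of the mitochondrial genome, a list drawn up after their values were seen, had ratios between -1.11 and -0.58, with a median of -0.81, and mt-Nd1 was the one past the limit (2331 against 1077). Reads of the mitochondrial genome made up 2.48% of the shControl and 1.39% of the shMLL1 day 5 library. Nuclear genes of the respiratory chain (74 genes, median -0.04) held no gene past the limit in either direction.

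Interferon-inducible genes were higher in shMLL1 cells at day 5. Type I interferons signal through the receptor pair IFNAR1 and IFNAR2 and the kinases JAK1 and TYK2 to a complex of transcription factors that includes STAT2 and IRF9, binds a repeated GAAA element and turns on antiviral genes. Of the 44 interferon-stimulated genes listed, 42 were kept, 41 were higher (97.6%, against 4.4% of all genes) and 1, Ifi27, was lower (69.7 against 17.3). All 42 had an RPKM over 1 in shMLL1 cells and 31 had it in shControl cells, so the remaining members were kept only through the library in which they were high and the share is not a like-for-like one with that of all genes. The median log2 ratio of the 42 genes was 3.99. Together with MHC class I genes and with the sensor, GTPase, IFI200 and Schlafen families, which were listed after their values were seen, 6 interferon lists held 94 genes, of which 85 were higher and 1 was lower, and 73 of the 94 had an RPKM over 1 in shControl cells. These 85 genes made up 17.5% of all higher genes.

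The IFIT genes encode proteins that bind foreign RNA, and Ifit3 had the highest RPKM of the list in shMLL1 cells at day 5. The RPKM of Ifit3 was 26.0 at day 0 and 48.5 at day 5 in shControl cells, and 7.68 and 1133 in shMLL1 cells. For Ifit1 the values were 11.3 and 17.0 in shControl cells at days 0 and 5 and 3.59 and 386 in shMLL1 cells. The ubiquitin-like protein gene Isg15 was at 1.54 (day 0) and 3.70 (day 5) in shControl cells and 1.00 and 192 in shMLL1 cells, and Usp18, the protease that removes ISG15, at 1.01 at day 0 and 1.11 at day 5 in shControl cells, and 0.357 and 66.7 in shMLL1 cells. In each of these genes the shMLL1 library was the lower of the pair at day 0 and the higher at day 5. The log2 ratios at day 5 were 4.54 (4.47 to 4.62), 4.50 (4.41 to 4.60), 5.66 (5.31 to 6.11) and 5.78 (5.54 to 6.30).

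The OAS genes, which encode synthases of 2′-5′ oligoadenylate, were low in the control. Oas2 was at 0.267 against 31.1 at day 5, and Oas1a at 2.09 against 62.8. Oas1g rested on 2 control reads and Oas3 on 1, against 1703 and 1114 reads in shMLL1 cells (95% intervals, 6.90 to 11.80 and 6.66 to 14.45). Rsad2, which encodes viperin, had 710 reads in shMLL1 cells and none in the control and was at least 120.0-fold higher. The OAS genes are close paralogs, so the split of reads among Oas1a, Oas1b and Oas1g is uncertain.

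Promoter windows of 10 interferon-inducible genes are printed, to show the element where it was found and windows of the same class of genes without it. Of the 15 genes with the highest ratios, 12 had a window and 5 of these held a match, and the share with a match among the printed windows is a matter of choice. The sequences are those of RefSeq on GRCm38.p6, read 5′ to 3′ on the strand of the gene, and capitals mark matches of GAAANNGAAA or, on the other strand, TTTCNNTTTC, the core of the interferon-stimulated response element. The 80-base windows hold the first match or, where the 300 bases around the start site (250 before and 50 after) held no match, lie around the start site.
Oas1g: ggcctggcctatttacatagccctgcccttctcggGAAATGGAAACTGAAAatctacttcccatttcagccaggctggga
Tgtp2: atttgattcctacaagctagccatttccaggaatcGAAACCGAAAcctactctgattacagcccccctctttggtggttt
Isg15: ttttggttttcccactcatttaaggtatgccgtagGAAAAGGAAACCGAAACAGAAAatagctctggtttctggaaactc
Bst2: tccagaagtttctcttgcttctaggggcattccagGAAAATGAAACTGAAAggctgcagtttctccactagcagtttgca
Ifit3: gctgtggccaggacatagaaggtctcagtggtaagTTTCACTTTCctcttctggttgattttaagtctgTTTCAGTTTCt
Ifit1: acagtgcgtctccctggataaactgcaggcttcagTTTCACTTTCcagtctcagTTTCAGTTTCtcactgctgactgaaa
Irf7: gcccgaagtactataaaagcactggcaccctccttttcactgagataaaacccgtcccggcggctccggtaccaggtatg
Ifi44: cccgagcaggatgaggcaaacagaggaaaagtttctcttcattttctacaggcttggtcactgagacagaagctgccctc
Slfn2: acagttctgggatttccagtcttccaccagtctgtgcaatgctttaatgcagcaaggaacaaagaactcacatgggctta
Oasl2: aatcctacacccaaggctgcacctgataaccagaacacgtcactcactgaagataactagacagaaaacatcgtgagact
They lie at chr5:120887587-120887666 (minus strand), chr11:49064238-49064317 (minus strand), chr4:156200852-156200931 (minus strand), chr8:71537558-71537637 (minus strand), chr19:34583338-34583417 (plus strand), chr19:34640750-34640829 (plus strand), chr7:141266385-141266464 (minus strand), chr3:151749871-151749950 (minus strand), chr11:83065072-83065151 (plus strand) and chr5:114896894-114896973 (plus strand), in the order printed. The 3 matches of Isg15 overlap, as do the 2 of Oas1g and the 2 of Bst2. Across the promoter table, 1079 of 27025 genes (3.99%) held at least 1 match in their 300 bases on either strand. Of the 41 interferon-stimulated genes that were higher, 29 had a window in the table and 18 of these 29 held a match. As fewer than 80% of the genes had a window, no share is given for the list, and summaries of GC and CpG content are left out for the same reason. Oas1a carried the same run of capitals as Oas1g within an almost identical window. A match is a description of these letters and not a measured binding site.

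Among the genes of the signalling pathway, the factors Stat2, Irf9 and Irf7 were higher, whereas the receptors and kinases named here were within 2-fold. Stat2 was at 5.13 and 6.54 in shControl cells at days 0 and 5 and 2.96 and 41.8 in shMLL1 cells, Irf9 at 7.91 against 33.0 and Irf7, the factor that amplifies interferon genes, at 1.16 (day 0) and 1.89 (day 5) in shControl cells and 0.471 and 80.6 in shMLL1 cells. The receptor chains Ifnar1 (18.4 against 12.1) and Ifnar2 (35.2 against 28.8) and the kinases Jak1 (30.3 against 28.6) and Tyk2 (2.05 against 2.69) did not pass the limit. None of 21 interferon ligand genes was kept. Ifnb1 was found in 3 reads of the shMLL1 library and in none of the control, and Ifna2 in 1 and none. Of 15 sensors of nucleic acids, 10 were higher, such as the RNA helicases Ifih1 (MDA5; 0.836 against 10.5), Dhx58 (LGP2; 2.99 against 33.3) and Ddx58 (RIG-I; 11.9 against 47.3), the receptor Tlr3 (1.50 against 6.57) and the Z-nucleic acid sensor Zbp1 (0.689 against 57.3). The adaptor Mavs (8.04 against 7.34) and the kinase Tbk1 (15.7 against 16.7) were not. Over all genes kept, 4.4% were higher. On this list of sensors, drawn up after its values were seen, 12 of the 15 had an RPKM over 1 in shControl cells. The rest were kept only through the shMLL1 library.

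All 20 interferon-inducible GTPases that were kept were higher, with a median log2 ratio of 2.96. They included Gbp3 (8.84 against 143), Iigp1 (10.9 against 175), Tgtp1 (1.32 against 86.6), Mx1 (0.383 against 11.8) and Mx2 (1.13 against 25.2), all known to act against pathogens inside cells. Of 12 genes of the IFI200 family, 11 were higher, and the exception was Aim2 (2.90 against 3.42). Ifi206 was at 0 at day 0 and 0.678 at day 5 in shControl cells, and 0 and 33.2 in shMLL1 cells. Ifi207 was already abundant in shControl cells at day 5, at 0.932 and 83.5 in shControl cells at days 0 and 5 and 0.635 and 222 in shMLL1 cells, and was higher (log2 ratio 1.41). The 3 Schlafen genes kept were all higher, and Slfn2, which acts in the quiescence of immune cells, was at 2.05 (day 0) and 5.81 (day 5) in shControl cells and 0.598 and 211 in shMLL1 cells. Over all genes kept, 4.4% were higher. In shControl cells, 18 of the 20 GTPases, 8 of the 12 IFI200 genes and 2 of the 3 Schlafen genes had an RPKM over 1. The others passed the filter only through the library in which they were high and could not have been lower.

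Antigen presentation was in the same direction. Of 15 genes of MHC class I and the immunoproteasome, 12 were higher and none was lower, against 4.4% and 3.42% of all genes. The median log2 ratio was 2.58. In shControl cells, 12 of the 15 had an RPKM over 1, and the rest were kept only through the shMLL1 library, in which they were high. H2-K1, a classical class I heavy chain, was at 17.3 at day 0 and 47.6 at day 5 in shControl cells, and 12.5 and 609 in shMLL1 cells, and B2m, the light chain, at 699.9 and 1291 in shControl cells at days 0 and 5 and 523 and 4475 in shMLL1 cells. The peptide transporter Tap1 was at 2.20 against 27.2 and its regulator Nlrc5 at 0.244 against 2.33. Psmb8 and Psmb9, the inducible proteasome subunits, were at 0.548 against 10.5 and 0.297 against 11.2. Tapbp (60.5 against 107), Psme1 (98.8 against 154) and Psme2 (41.6 against 55.0) stayed within 2-fold. Class I heavy chains are near-identical in part, so the counts of single H2 genes are uncertain. Of the chemokine and acute-phase genes (21 kept), 5 were higher and 5 were lower: Cxcl10 was at 0.184 against 6.76 and Ccl5 at 1.94 against 49.0, while Cxcl12 was at 418 against 111 and Cxcl5 at 94.7 against 30.7.

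Defining markers of leukocytes were at or near 0 in both libraries. Of 12 macrophage and leukocyte markers, 2 were kept, Cd14 (3.06 against 8.24) and Cd68 (1.23 against 1.40). The pan-leukocyte gene Ptprc and C1qa, C1qb, C1qc, Tyrobp and Fcgr3 had no read in either day 5 library, and Adgre1 had 1 read in shMLL1 cells. No marker of endothelial or epithelial cells was kept. Among surface markers of mesenchymal stem cells, 4 of 12 were lower and 1 was higher, against 3.42% and 4.4% of all genes. Pdgfrb was at 65.8 against 63.9 and Cd44 at 15.7 against 16.6. Pdgfra (70.8 against 32.0) and Thy1 (22.6 against 11.1) were lower, and Nt5e was nearly absent in both libraries (0.012 against 0.0122). Ly6a (Sca-1), which interferon also induces, was at 172 (day 0) and 136 (day 5) in shControl cells and 81.5 and 927 in shMLL1 cells.

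The high interferon-inducible values were not confined to shMLL1 cells. At day 5 the RPKM of Ifit3 was 489 in shNFIB cells and 45.7 in shKDM4D cells, that of Isg15 was 76.6 and 1.90, that of Stat2 was 23.3 and 5.27, and that of H2-K1 was 128 and 31.6. The shNFIB values of these 4 genes thus lay between those of the shControl and shMLL1 libraries, and the shKDM4D values near or under the control. Other genes differed from this order, since Slfn2 was at 2.35 in shNFIB cells and 0.751 in shKDM4D cells, both under the control. The summed RPKM of the IFI200 family at day 5 was 262 in the control, 208 with shKDM4D, 207 with shNFIB and 924 with shMLL1. For the GTPases it was 108, 60.7, 325 and 1019 in the same order. All day 5 ratios share the 1 shControl library, so they are not independent. Of the 85 interferon genes that were higher, 84 had their highest value of the 8 libraries in shMLL1 cells at day 5. This was so for 335 of all 486 higher genes and for 1948 of the 11039 genes kept. Higher genes were chosen by their shMLL1 day 5 value, so this ranking was partly fixed by the choice. The part of the clone in these values was not tested.

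**Figure D3:**
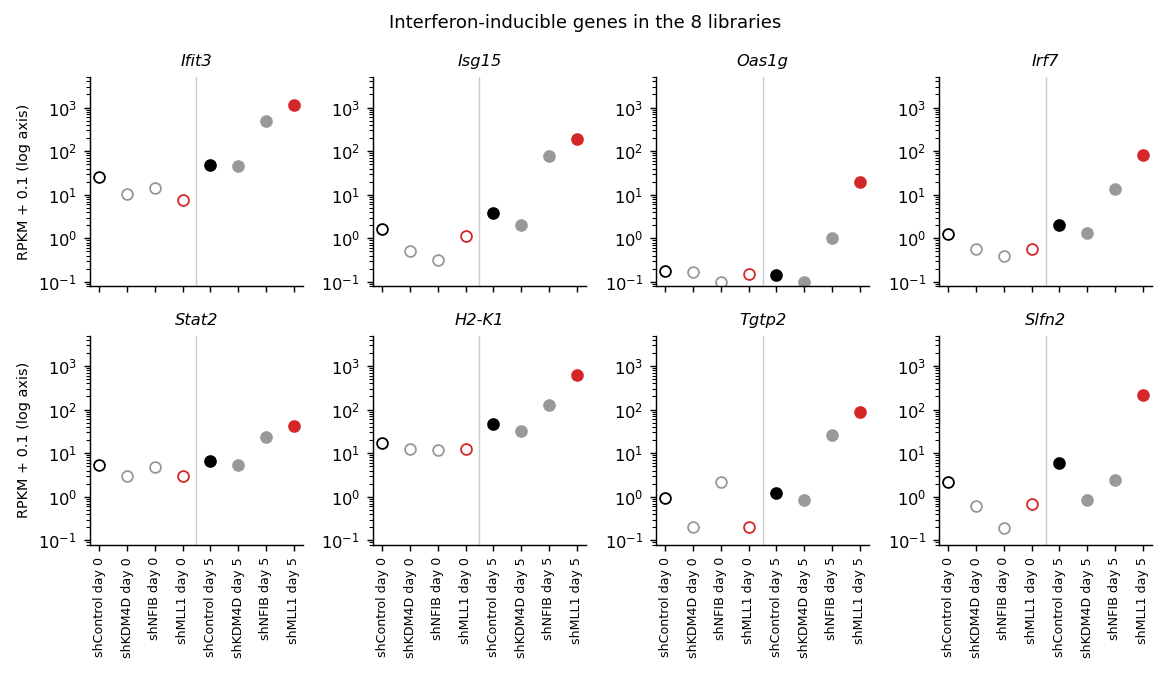
RPKM + 0.1 on a log axis for 8 interferon-inducible genes in the 8 libraries, with open circles for day 0 and filled circles for day 5 (black, shControl; red, shMLL1; grey, shKDM4D and shNFIB). The shMLL1 day 5 value is the highest in every panel, and the shNFIB day 5 value is the next highest except for Slfn2.

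Histone genes made up another group of higher genes. Of 47 genes of the Hist clusters that were kept, 40 were higher (85.1%, against 4.4% of all genes) and none was lower. This list was drawn up after its values were seen. The list had a median log2 ratio of 1.66 at day 5 and 0.02 at day 0. All 47 genes had an RPKM over 1 in shMLL1 cells but 21 in shControl cells, so the other members passed the filter only through the library in which they were high and could not have been lower. Most are expressed during DNA synthesis, and their mRNA ends in a stem-loop in place of a poly(A) tail. The linker histone gene Hist1h1b was at 2.43 at day 0 and 0.279 at day 5 in shControl cells, and 2.64 and 4.62 in shMLL1 cells, and the core histone gene Hist1h4j at 0.437 and 1.00 in shControl cells at days 0 and 5 and 0.71 and 7.52 in shMLL1 cells. Hist1h2ah had 158 reads in shMLL1 cells and none in the control (at least 26.7-fold higher). The most abundant one, Hist1h2bc, was at 49.2 (day 0) and 129.7 (day 5) in shControl cells and 44.5 and 359.6 in shMLL1 cells (log2 ratio 1.47; 95% interval, 1.41 to 1.53), and Hist2h2aa1 (54.3 against 71.9) was within 2-fold. Histone genes share near-identical sequences and part of them rested on few control reads, so single values are uncertain.

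Cell cycle genes were shifted in the same direction by less. All 35 genes of mitosis had log2 ratios above 0, with a median of 0.71. Of these, 7 were higher (against 4.4% of all genes), among them the kinases Plk1 (8.45 against 21.04), Aurka (6.81 against 17.1) and Bub1 (4.50 against 9.59). Of 35 DNA replication genes, 33 were above 0 and 5 were higher, such as Mcm5 (7.16 against 17.8) and Mcm10 (1.92 against 5.06), parts of the replication fork. The proliferation marker Mki67 was at 76.7 at day 0 and 30.1 at day 5 in shControl cells, and 113 and 31.6 in shMLL1 cells, and Top2a at 76.4 and 36.2 in shControl cells at days 0 and 5 and 82.6 and 58.9 in shMLL1 cells. Levels at day 5 were thus under those of day 0 in both lines. The same lists had medians of 0.56 and 0.34 at day 0. Among CDK inhibitors and p53 targets (20 kept), 2 were lower (against 3.42% of all genes) and none was higher. Cdkn2c was at 12.5 against 5.81, and Perp at 1.30 against 0.282 from 49 and 21 reads.

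Genes under the stress factor ATF4, which meets a shortage of amino acids, were higher for 7 of 27 kept (25.9%, against 4.4% of all genes) and lower for none, with a median log2 ratio of 0.78. Phgdh, the first enzyme of serine synthesis, was at 134 (day 0) and 28.7 (day 5) in shControl cells and 110.2 and 86.2 in shMLL1 cells. The amino acid transporter Slc7a5 was at 64.1 at day 0 and 9.03 at day 5 in shControl cells, and 27.2 and 24.7 in shMLL1 cells, Asns, asparagine synthetase, at 70.4 and 12.8 in shControl cells at days 0 and 5 and 43.5 and 28.5 in shMLL1 cells, and the factor Atf5 at 171 (day 0) and 65.3 (day 5) in shControl cells and 74.4 and 149 in shMLL1 cells. In shControl cells each of these genes was lower at day 5 than at day 0, whereas Atf5 in shMLL1 cells was higher at day 5. At day 0 the order was reversed, and shMLL1 cells had the lower value of these 4 genes. The largest log2 ratios of the list at day 5 were those of Trib3 (2.39, from 3.21 against 17.3) and Chac1 (1.92, from 2.43 against 9.47). Both were lower in shMLL1 cells at day 0 (-2.77 and -1.79). An entry labelled Ddit3_1, outside the list and picked after its values were seen, was at 57.6 against 253 at day 5. Slc38a2 was the member with the lowest ratio (34.6 against 17.6; -0.97), within 2-fold. Chaperones of the endoplasmic reticulum were a different case, with 1 of 20 lower, Dnajb9 (35.2 against 13.3), none higher and Hspa5 (BiP) at 233 against 301.

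**Figure D4:**
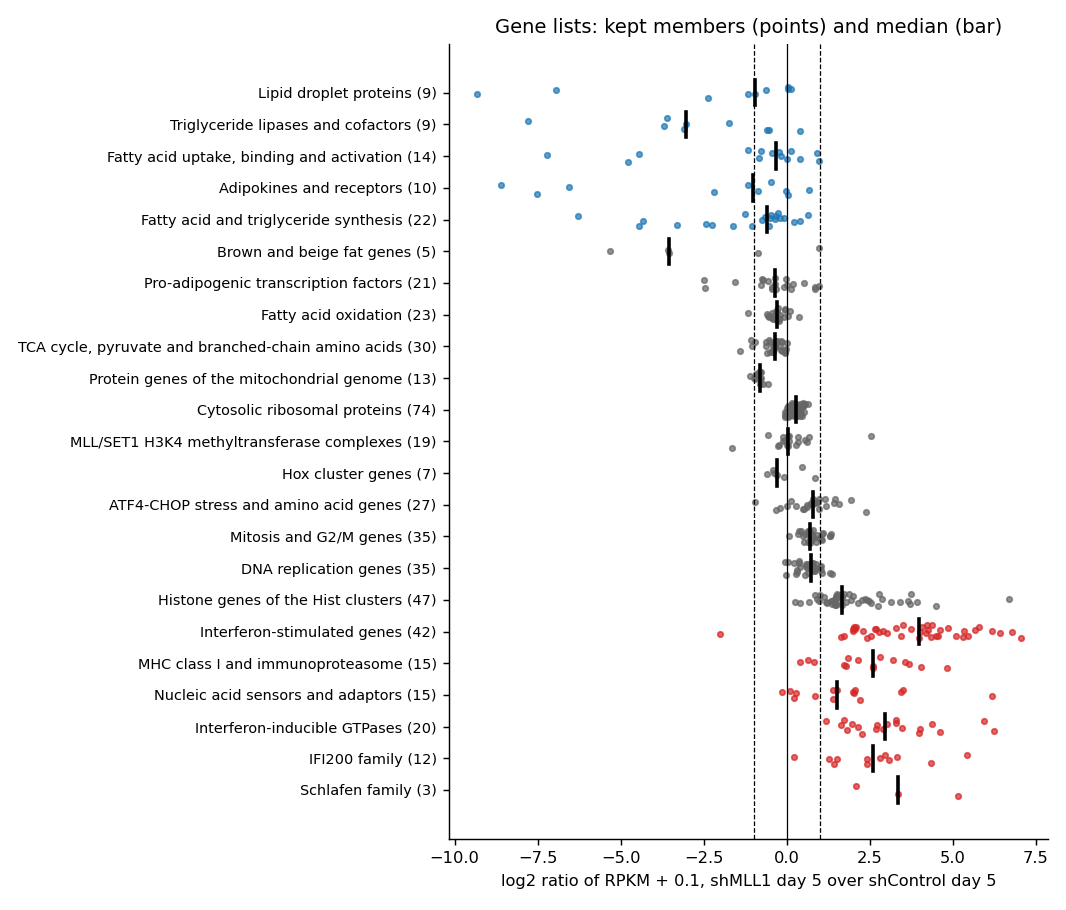
Log2 ratio of RPKM + 0.1, shMLL1 over shControl at day 5 (x axis), for the kept members (points) of 23 gene lists, with the number kept in parentheses, the median as a black bar and the 2-fold limits as dashed lines. The medians of the 5 fat lists (blue) lie between -3.02 and -0.33 and those of the 6 interferon lists (red) between 1.52 and 3.99, while the cytosolic ribosomal proteins (74 genes) are close together around 0.27.

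Matrix genes went in both directions. Of 24 collagen genes kept, 4 were lower and 2 were higher, against 3.42% and 4.4% of all genes. The lower ones included Col8a2 (4.53 at day 0 and 9.04 at day 5 in shControl cells, and 0.0758 and 0.76 in shMLL1 cells), Col2a1 (2.99 against 0.264) and the microfibril chain Col6a3 (137 against 63.9), and the higher ones were Col28a1 (0.85 and 2.24 in shControl cells at days 0 and 5 and 1.26 and 22.7 in shMLL1 cells) and Col8a1 (0.502 against 2.93). The main fibrillar chains differed by less than 2-fold, with Col1a1 at 688 against 569 and Col3a1 at 535 against 763. The proteoglycan Dcn (decorin) was at 3.72 (day 0) and 31.8 (day 5) in shControl cells and 3.13 and 92.2 in shMLL1 cells, whereas Ogn (osteoglycin) was at 600.1 against 286. Mmp3, a stromelysin, was at 17.8 against 1.27 and Mmp2, a gelatinase, at 168 against 298. Itgb8, an integrin chain that activates TGF-β, was at 1.11 against 4.52, and Itgb4 at 2.02 against 0.505.

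Hox genes, the best known MLL1 targets, were not called. Only 7 of 38 listed were kept, with log2 ratios between -0.60 and 0.84 and a median of -0.29. Hoxa7, the most abundant, was at 19.7 at day 0 and 17.6 at day 5 in shControl cells, and 17.3 and 16.6 in shMLL1 cells, and Hoxa5 was at 4.82 against 3.16 and Hoxa10 at 1.38 against 2.54 at day 5. Imprinted genes, which are expressed from 1 parental copy, were lower for 6 of 14 kept (against 3.42% of all genes) and higher for 1, Dcn. H19 was at 0.382 and 12.9 in shControl cells at days 0 and 5 and 0.0106 and 2.02 in shMLL1 cells, Ndn at 3.45 (day 0) and 6.04 (day 5) in shControl cells and 1.25 and 1.46 in shMLL1 cells, Peg10 at 2.68 against 0.72 and Igf2 at 1.45 against 0.188. Smooth muscle genes were lower for 5 of 15 (against 3.42% of all genes), with Myl9 at 19.3 against 4.27 and Lmod1 at 13.8 against 5.01. Acta2 was at 478 against 289. Of the YAP and TEAD list (18 kept), 4 were higher (against 4.4% of all genes) and none was lower. Among the higher ones were Ankrd1 (0.469 against 7.34) and Ctgf (6.91 against 19.4). The osteopontin gene Spp1 was at 206 at day 0 and 221 at day 5 in shControl cells, and 473 and 596 in shMLL1 cells.

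Of 16 Wnt genes, 3 were lower and none was higher, against 3.42% and 4.4% of all genes. The lower ones were the secreted Wnt inhibitors Sfrp1 (5.12 against 1.46) and Sfrp2 (17.0 against 7.85) and the factor Lef1 (1.44 against 0.412). On the TGF-β and BMP list (29 kept), Ltbp2 (56.6 against 20.5) and the BMP antagonist Grem1 (19.5 against 7.80) were lower, and Inhba (1.31 against 3.11) and Tgfbi (11.3 against 27.2) were higher. Dexamethasone was part of the inducing mixture, which the study's methods give only until day 2. By day 5 the cells were thus no longer given it. The glucocorticoid-responsive genes were lower for 5 of 17 (against 3.42% of all genes) and higher for none. The lower ones included Glul, glutamine synthetase, at 132 against 60.6 and Zbtb16 at 2.33 against 0.988. Angptl4 and Pdk4, also lower, are on the lipase and pyruvate lists too. Of the 17 genes, 4 had log2 ratios above 0, among them Tsc22d3 (0.72), Per1 (0.35) and Fkbp5 (0.29). Among 24 genes of glycolysis and hypoxia, Car9 (2.72 against 0.774), Pfkfb3 (6.50 against 2.84) and Ldhb (41.1 against 20.4) were lower and none was higher. The other way, 16 of the 24 lay above 0 and the list's median was 0.28, with the enzyme genes Pgk1 (287 against 429), Eno1 (178 against 262), Ldha (164 against 231) and Pkm (188 against 253) within 2-fold. Of 18 immediate early genes, Atf3 (1.22 against 3.20) and Klf10 (6.38 against 15.2) were higher. The NRF2 list (19 kept) held 1 gene in each direction, Gstm1 (202 against 96.0) and Gsta1 (1.62 against 4.86). Of the bone and cartilage genes (11 kept), 3 were lower, with the tendon gene Tnmd at 3.14 against 0.136, and Spp1 alone was higher. Of 10 clustered protocadherins, Pcdhgb2 (1.07 against 0.242) was lower. Skeletal muscle and neural markers were mostly under the filter, with 2 of 13 and 2 of 11 kept. Of these, Tnnt1 (2.25 against 0.393) and S100b (8.44 against 2.17) were lower, and Map2 (5.47 against 12.3) was higher. None of 7 Hox cofactors passed the limit. Nor, by their log2 ratios, did the KDM4 genes Kdm4a (0.05), Kdm4b (0.17) and Kdm4c (0.24) or the NFI genes Nfia (-0.21), Nfic (-0.12) and Nfix (-0.29), and Kdm4d was under the filter (RPKM 0.235 against 0.138).

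Whether the day 5 differences were present before induction was examined with the day 0 libraries, which are separate from those of day 5. Of the same 11039 genes, 595 (5.39%) were lower and 91 (0.824%) were higher in shMLL1 cells at day 0, with a median log2 ratio of -0.07. Of the 378 genes lower at day 5, 122 were lower at day 0, 250 were within 2-fold and 6 were higher. Among those lower at both days were Kmt2a, Pparg (-1.27 at day 0), Cebpa (-1.63), Dlk1 (-3.21), Tbx1 (-3.87) and Col8a2 (-4.72). The downstream fat genes were mostly within 2-fold before induction, as for Pnpla2 (0.21), Acsl1 (-0.01) and Scd1 (-0.27). On the fat lists, G0s2 (-2.29), Mgll (-1.76), Fabp4 (-1.60), Plin4 (-1.55), Lipa (-1.46) and Bscl2 (-1.18) were already lower. Cav1 (1.30) and Apln (1.08) were higher. For genes near RPKM 0 at day 0 the ratio says little, and Cidec, Plin1 and Retn had a day 0 ratio of 0. The change of the log2 ratio from day 0 to day 5 was -3.81 for Pnpla2 (interval of at least 95% from both read ratios, -4.10 to -3.55) and -4.43 for Acsl1 (-4.81 to -4.22).

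Of the 486 genes higher at day 5, 38 were higher at day 0, 366 were within 2-fold and 82 were lower, and 31 of these 82 belonged to the interferon lists. The interferon-stimulated list had a median of 3.99 at day 5 and -0.93 at day 0, and the GTPases of 2.96 and -1.37. Tgtp2 was at 0.818 and 1.09 in shControl cells at days 0 and 5 and 0.107 and 89.0 in shMLL1 cells, a log2 ratio of -2.15 at day 0 and 6.22 at day 5. The change for Ifit3 was 6.29, and that for Irf7 was 6.49 (interval, 5.94 to 7.52).

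**Figure D5:**
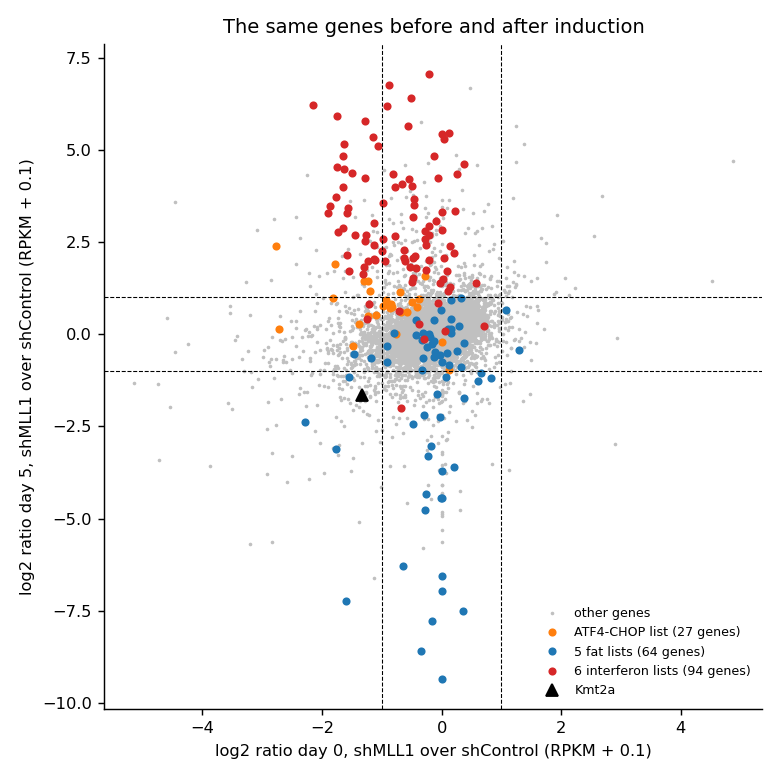
Log2 ratio of RPKM + 0.1, shMLL1 over shControl, at day 0 (x axis) and at day 5 (y axis) for the 11039 genes, with the 2-fold limits dashed. The fat lists (blue) extend downwards, mostly at ratios near 0 at day 0. The interferon lists (red) are mostly above the upper limit with day 0 ratios mostly below 0. The ATF4 list (orange) lies at the upper left of the centre, and Kmt2a (triangle) is below -1 at both days.

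Along the chromosomes of GRCm38, with kept genes ordered by their position in GENCODE M21, 40.0% of 482 higher genes were next to another higher gene, against 7.72% of all genes kept. For the 375 lower genes with a position, 16.0% were next to a lower gene, against 6.64% of all. There were 28 runs of at least 3 higher genes, which held 147 genes, and 6 runs of lower genes with 18. The longest held 12 histone genes, Hist1h4h to Hist1h4d, on chromosome 13 (23531050 to 23582735). The IFI200 cluster on chromosome 1 (173468485 to 174031810) held 11 genes from Ifi206 to Ifi205. A run of 9 genes on chromosome 11 (48861968 to 49096974) spanned Irgm1, Tgtp1, Tgtp2 and Ifi47, and 6 genes on chromosome 19 (34550694 to 34650009) spanned Ifit2 to Ifit1. Members of such families are alike in sequence, and the part of shared reads in these runs was not tested. The run of lower genes on chromosome 7 (142575529 to 143019644) held the imprinted H19 and Igf2 and the neighbouring Tspan32. Lower and higher genes had median exon lengths of 3437 and 2908 bases, against 4397 for all genes kept, with a length known for 375 of 378, 482 of 486 and 10985 of 11039 genes.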

How the data were processed

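RNA-seq libraries of C3H10T1/2 cells (shControl, shKDM4D, shNFIB and shMLL1, at days 0 and 5, 1 library each) were made by the authors with a stranded SMARTer kit and mapped in CLC Genomics Workbench to GRCm38/mm10 (mismatch cost 2, insertion and deletion costs 3, length and similarity fractions 0.8). The deposited values are RPKM per gene symbol and library, calculated by the authors. Their methods also describe quantile normalization and a filter for protein-coding genes, and both were run here as alternatives.

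Files were joined on symbol, and genes with RPKM over 1 in the shMLL1 or the shControl day 5 library were kept. The log2 ratio of RPKM + 0.1 was taken, with a limit of 2-fold. With 1 library per condition there is no replicate check and no p-value. Read counts were recovered from RPKM steps (96.2% to 96.5% of values whole within 0.02 reads) with GENCODE M21 exon lengths and give exact (Clopper-Pearson) 95% intervals, which cover counting error only. The libraries held 15842221 to 38202580 mapped reads, and 3 reads were taken as the floor for a library at 0. The calculation of intervals was tested on simulated data.

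Genes were named by rule: Kmt2a, the MLL and SET1 complexes, Pparg, Cebpa, Cebpb and Fabp4, the 15 lowest and 15 highest ratios among genes with RPKM of at least 10 and no predicted symbol, up to 4 called members of each list (RPKM of at least 2) and its 2 most abundant in the control, and the genes at the filter limit. Other members were named to describe their list, after their values were seen. The members and the 47 gene lists were chosen with earlier results of these data known, and 8 further lists were added after values were seen. Promoter windows are from RefSeq (GRCm38.p6), with 379 older symbols matched through RefSeq synonyms. Python 3.11.15, pandas 2.3.3, numpy 2.4.6 and scipy 1.17.1 were used. Alternatives were other pseudocounts, filters, scalings and fold limits.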

Additional observations from a re-analysis of the deposited data

Results flagged for a closer look

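Some gene groups had median log2 ratios of opposite sign before and after induction, with 1 library per condition, and the difference was not tested. The median of the interferon-stimulated genes was 4.92 higher at day 5 than at day 0 (3.99 and -0.93). That of the interferon-inducible GTPases was 4.33 higher (2.96 and -1.37), and that of the MHC class I and immunoproteasome genes was 3.08 higher (2.58 and -0.50). The ATF4 list differed by 1.64 (0.78 and -0.87). The protein genes of the mitochondrial genome went the other way, with a difference of -1.07 (-0.81 and 0.26). Among single genes, 82 were over 2-fold higher in shMLL1 cells at day 5 and over 2-fold lower at day 0, and 6 had the reverse pattern.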

How the results depend on the processing

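No paired analysis was possible because each condition has 1 library, and for the same reason no replicate could be left out. The number of lower genes was 241 with a pseudocount of 1, 857 with no filter on RPKM and 180 with a limit of 3-fold, against 378, and the number of higher genes was 1056 with no filter and 258 with the limit of 3-fold, against 486. These settings change how many low genes enter or how large a ratio must be. Under the other settings the counts ran from 299 to 446 lower and from 330 to 520 higher. The balance of the directions turned under quantile normalization, a step of the study's methods, with 446 lower and 435 higher, and was nearly even under median-of-ratios scaling, with 423 lower and 438 higher. Relative to Gapdh, whose day 5 RPKM was 242.5 for shControl and 310.7 for shMLL1, the median log2 ratio of all genes was -0.28, since this scaling moved the ratios by -0.35. The ratio of Kmt2a was -1.26 with a pseudocount of 1, -1.89 after quantile normalization and -1.98 relative to Gapdh, and for the quantile value the cause was not tested. The fat lists held 23 to 30 lower genes and at most 1 higher, and the interferon lists 78 to 88 higher and 1 lower, in all settings that gave counts. Of 130 named genes past the limit, 112 stayed past it with a pseudocount of 1, 127 under median-of-ratios scaling and under quantile normalization, and 115 relative to Gapdh, where Plk1, Aurka, Mcm5 and Atf5 were lost, and none changed sign. Genes with a few control reads, such as Oas1g and Oas3, are limited by the depth of the control library.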

Other observations

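Genes outside the lists were also far apart, and those given here were chosen after their values were seen. Plac8 had an RPKM of 2.24 in shControl cells against 118 in shMLL1 cells, and the interferon-inducible Ifi27l2a of 19.2 against 558, in contrast to the related Ifi27. Ifitm3, an inhibitor of virus entry, was at 286 against 1451 and Apod, a lipid carrier, at 74.1 against 669.7.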
